A study of Mus musculus with 21 samples.

Results

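The antioxidant enzymes described here were 10 mouse genes of 55335 gene identifiers in the deposited tables, namely the superoxide dismutases Sod1 and Sod2, catalase (Cat), the glutathione peroxidases Gpx1 and Gpx4, the peroxiredoxins Prdx1, Prdx2, Prdx3 and Prdx5, and thioredoxin (Txn1). They were found by gene symbol in all 21 libraries, and their FPKM (fragments per kilobase of gene, scaled to the library total) was used, which allows levels of genes of unequal length to be set side by side. The family was chosen by function, but with earlier results of these data known, among the measured values the Sod1 FPKM in oocytes of Aged + LRP1high and Aged + LRP1low mice, so that contrast is given as a description. A count of genes past the thresholds is printed for it beside that of all genes, and nothing is read from it. Other comparisons that use the same LRP1high or LRP1low oocyte libraries are not independent of that choice.

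Superoxide dismutases convert superoxide, a by-product of respiration, into hydrogen peroxide, Sod1 mainly in the cytosol and Sod2 in mitochondria. Catalase, glutathione peroxidases and peroxiredoxins then break the peroxide down, and thioredoxin passes electrons to most peroxiredoxins. In the ovary, oxidative damage is among the changes that accompany aging of the oocyte, a cell that stores its transcripts during growth and becomes transcriptionally silent before ovulation.

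The study asked whether human umbilical cord mesenchymal stem cells, placed under the ovarian capsule of naturally aged mice, act on oocytes and granulosa cells, and whether cells sorted for high LRP1, a receptor of the low-density lipoprotein receptor family, differ from cells sorted for low LRP1. Young ICR mice of 6 to 8 weeks gave 3 oocyte libraries and 1 granulosa cell library. Untreated mice of 18 months (Aged) gave 2 oocyte and 2 granulosa cell libraries, and mice of that age that received unsorted cells (Aged + Unsorted) gave 2 and 1, LRP1-high cells (Aged + LRP1high) 3 and 3, and LRP1-low cells (Aged + LRP1low) 2 and 2. No vehicle injection is named for the Aged group, and the numbers of animals and cells behind a library are not given in the sources used here. The labels call the libraries biological replicates, but nothing says that they came from separate animals, so the p-values measure the spread between libraries only.

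The marker genes of the labelled cell type were not present in every library. Aligned sequence, computed from the deposited coverage and FPKM, was 0.278 to 3.40 gigabases in oocyte and 0.335 to 1.49 gigabases in granulosa cell libraries. The median FPKM of 10 oocyte marker genes (Zp1, Zp2, Zp3, Gdf9 and others) was between 84.9 and 1001 in 8 of 12 oocyte libraries but 0.892 in Young replicate 1, 11.6 in Aged replicate 1, and 5.02 and 7.77 in Aged + LRP1low replicates 1 and 2. In these 4 libraries a family of 10 repeat-like genes led by Gm10800 took 42.4 to 88.3% of all FPKM, against at most 19.6% in the other 8. The granulosa cell library of Aged + Unsorted held an oocyte marker median of 799.7 FPKM and a median of 1.42 FPKM for 10 granulosa and cumulus cell markers. In both granulosa cell libraries of Aged the repeat-like family took 93.4% and 95.4% of FPKM, and the granulosa marker medians were 0.0482 and 0.111. Genes at 1 FPKM or more numbered 47920 and 38934 in Aged + LRP1low oocyte replicates 1 and 2 and 27970 in Aged oocyte replicate 1. In the 8 oocyte libraries with high oocyte markers they numbered 3135 to 11916. In Aged + LRP1low oocyte replicates 1 and 2 the stromal marker medians were 6.04 and 4.30 FPKM and the immune ones 4.21 and 4.73. Low member levels in these 2 libraries thus lie near those of markers of other cell types. Fewer cells of a type and less RNA per cell cannot be told apart in such bulk libraries.

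Sod1 was the most abundant of the 10 genes in most libraries, and in most oocyte libraries Prdx1 and Prdx2 followed it. Sod1 had the highest FPKM of the family in 11 of 12 oocyte libraries and in 7 of 9 granulosa cell libraries. In Aged + LRP1low replicate 1 of the oocytes Prdx2 came first instead, and in both Aged granulosa cell libraries Sod2 did. In 9 of 12 oocyte libraries, but in 2 of 9 granulosa cell libraries, the 3 leading genes were Sod1, Prdx1 and Prdx2. In the 8 oocyte libraries with an oocyte marker median of at least 80 FPKM, Sod1 alone made up 79.7 to 98.1% of the summed FPKM of the family, and 8.78 to 69.6% in the other 4.

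Sod1, Prdx1 and Prdx2 are therefore shown with the sequence around their start sites, as the members that were high together. Each window, from RefSeq on build GRCm38.p6, runs from 250 bases before to 50 bases after an annotated start and is written 5′ to 3′ on the gene's strand. Capitals mark matches, on either strand, to the antioxidant response element core TGACNNNGC, the GC box GGGCGG, the CCAAT box CCAAT, the TATA box TATAAA or the Nobox site TAATTG. Sod1 lies at chr16:90220512-90220811 (plus strand), Prdx1 at chr4:116685349-116685648 (plus strand) and Prdx2 at chr8:84969372-84969671 (plus strand).
Sod1: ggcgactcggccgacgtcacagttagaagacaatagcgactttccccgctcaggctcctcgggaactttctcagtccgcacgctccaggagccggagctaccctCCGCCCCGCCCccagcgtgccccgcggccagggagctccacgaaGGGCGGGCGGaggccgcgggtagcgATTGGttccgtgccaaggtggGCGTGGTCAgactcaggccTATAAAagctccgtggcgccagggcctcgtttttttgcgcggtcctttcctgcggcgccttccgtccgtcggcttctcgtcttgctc
Prdx1: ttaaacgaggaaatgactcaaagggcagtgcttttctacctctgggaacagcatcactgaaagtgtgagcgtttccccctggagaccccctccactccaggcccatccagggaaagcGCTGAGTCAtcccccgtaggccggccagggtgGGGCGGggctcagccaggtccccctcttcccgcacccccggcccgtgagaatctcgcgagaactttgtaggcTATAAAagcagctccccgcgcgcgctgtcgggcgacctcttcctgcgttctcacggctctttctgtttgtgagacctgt
Prdx2: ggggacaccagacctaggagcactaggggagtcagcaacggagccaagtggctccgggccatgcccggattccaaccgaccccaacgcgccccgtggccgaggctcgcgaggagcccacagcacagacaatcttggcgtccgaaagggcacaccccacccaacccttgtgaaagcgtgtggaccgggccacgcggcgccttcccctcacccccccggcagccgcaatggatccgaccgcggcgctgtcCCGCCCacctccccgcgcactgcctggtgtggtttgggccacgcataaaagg
The Sod1 window held the antioxidant response element core at -56 from the start, 4 GC boxes that overlap in pairs, a CCAAT box and a TATA box at -37. The Prdx1 window held the core at -133, a GC box and a TATA box at -29, and the Prdx2 window a GC box only. The core was present in 2 of the 13 windows of the family (Gpx4 has 4 annotated starts) and in 12.4% of all 32851 windows of that length, the GC box in 12 of 13 and 35.7%, the CCAAT box in 6 of 13 and 37.4%, the TATA box in 4 of 13 and 13.6%, and the Nobox site in 1 of 13 and 8.00%. These are matches of letters in a window and were not tested as binding sites. The share of G and C letters was 47.0% in the Gpx1 window and 57.0 to 68.7% in the other windows of the family. The median over all windows was 52.7%. The Gpx4 windows chr10:80053315-80053614 and chr10:80053409-80053708 overlap, so their shared matches count in both.

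Sod1, the cytosolic copper and zinc dismutase (chr16:90220754-90226329 on GRCm38), reached 20.8, 895 and 17124 FPKM in the Young oocyte libraries and 236 and 3951 in Aged. It was at 3428 and 5197 FPKM in Aged + Unsorted, 9899, 12944 and 13185 in Aged + LRP1high, and 6.22 and 36.5 in Aged + LRP1low oocytes. The LRP1high libraries lay close together and above every Aged, Aged + Unsorted and Aged + LRP1low library, while Young spanned nearly the whole range. Sod1 ranked first among all genes in Young replicate 3 and in Aged + LRP1high replicate 1, and within the first 8 in the other Aged + LRP1high libraries, Aged replicate 2 and both Aged + Unsorted libraries. The Aged + LRP1high mean was 12009 ± 1832 FPKM (SD, n = 3) and that of Aged + Unsorted 4313 ± 1250 (SD, n = 2).

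Sod1 did not pass the threshold in the oocyte comparisons that follow. All differences below are of log2(FPKM + 1), which understates changes of low genes, with p-values from limma adjusted by Benjamini-Hochberg over all genes tested. Aged + LRP1high was above Aged by 3.62 (SE 2.16, adjusted p = 0.370), and Aged + LRP1low was below Aged by -5.88 (SE 2.37, adjusted p = 0.269). Between Aged and Young the difference was 0.48 (SE 2.16, adjusted p = 0.929). The marker-poor libraries lie in these groups. Without them the difference of Aged + LRP1high from Aged was 1.59 (adjusted p = 0.895), with a single Aged library left and assumed to vary like the others. Relative to the oocyte marker median, Sod1 was 5.19 to 81.7 times as high in the 8 marker-rich oocyte libraries, with the highest ratio in Aged + LRP1high replicate 3, whose marker median was 161 FPKM. The part of oocyte RNA content in the Sod1 levels was not tested.

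Sod2, the mitochondrial manganese dismutase, stayed low. Oocytes of Young mice had 9.95, 0.434 and 4.48 FPKM, those of Aged mice 6.71 and 13.2, and Aged + Unsorted 5.75 and 6.26. It was at 2.77, 5.83 and 0.520 in Aged + LRP1high and 10.3 and 12.5 in Aged + LRP1low oocytes. Every Aged + LRP1high library lay below both Aged libraries, by -1.62 (SE 0.91, adjusted p = 0.370), a difference that did not pass the threshold. Both Aged + Unsorted libraries also lay below both Aged libraries. Of all genes tested, 12.4% lay below Aged in every Aged + LRP1high library and 11.3% in every Aged + Unsorted library. Its order across libraries ran against that of Sod1, with a correlation of -0.48 over the 12 oocyte libraries, which differ in depth and in marker content.

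**Figure D1:**
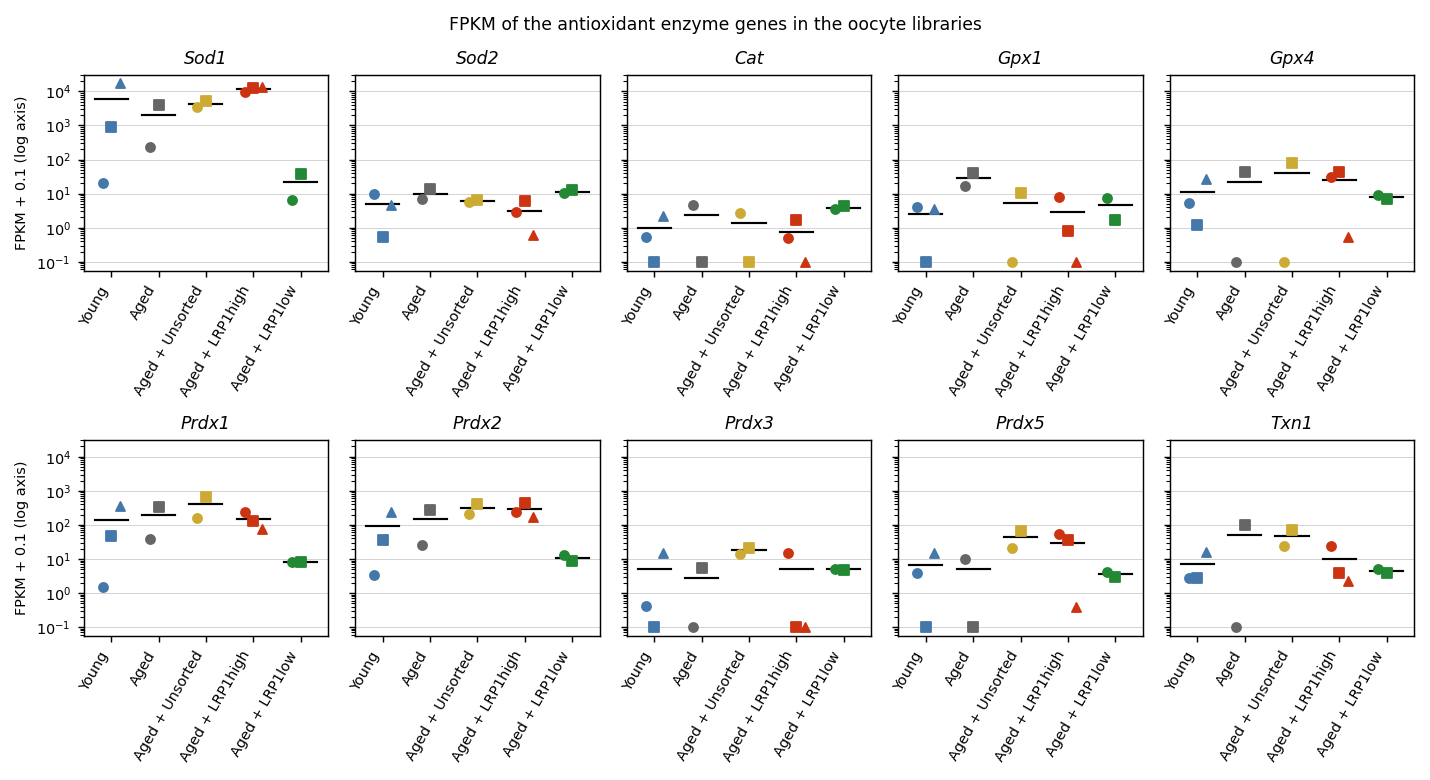
FPKM + 0.1 on a log axis for each of the 10 genes in the 12 oocyte libraries, by group; a circle, square or triangle is replicate 1, 2 or 3 and the black line the group mean. Sod1 lies between 9899 and 13185 in the 3 Aged + LRP1high libraries and at 6.22 and 36.5 in Aged + LRP1low, whereas Sod2 and Cat stay at or below 13.2 FPKM in every library.

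Catalase, the peroxisomal enzyme that splits hydrogen peroxide, was barely covered in oocytes. Cat was at 0.448, 0 and 2.18 FPKM in Young and at 4.47 and 0 in Aged. It was at 2.64 and 0 in Aged + Unsorted, 0.386, 1.56 and 0 in Aged + LRP1high, and 3.41 and 4.13 in Aged + LRP1low oocytes. All groups other than Aged + LRP1low thus had a library in which Cat was listed at 0, and no level was above 4.47 FPKM. The immune marker medians of both Aged + LRP1low libraries were 4.21 and 4.73 FPKM and the red blood cell marker medians 3.65 and 1.68. A Cat level above 0 there therefore cannot be told apart from that of markers of other cell types. Differences between groups compared with Aged lay within 1.02 on the log2 scale and none passed the threshold.

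Gpx1, the cytosolic glutathione peroxidase (chr9:108338903-108340343), was the member whose Aged oocytes stood apart from the remaining groups. It was at 16.5 and 39.0 FPKM in Aged but at 4.03, 0 and 3.49 in Young. After transplantation it was at 0 and 10.4 in Aged + Unsorted, 7.77, 0.683 and 0 in Aged + LRP1high, and 7.55 and 1.58 in Aged + LRP1low. Both Aged libraries lay above all 10 others, and the share of all genes that did so was not computed. Against Young alone, 1 of the 10 members, Gpx1, lay above in both Aged libraries, beside 11.01% of all genes tested. Aged differed from Young by 3.23 (SE 1.26, adjusted p = 0.435). Aged + LRP1high differed from Aged by -3.43 (SE 1.26, adjusted p = 0.277), Aged + Unsorted by -2.97 (SE 1.38, adjusted p = 0.436) and Aged + LRP1low by -2.49 (SE 1.38, adjusted p = 0.473). None passed the threshold over all genes, and the comparisons share the 2 Aged libraries, which were the shallowest outside Aged + LRP1low at 0.578 and 0.791 gigabases. Without the marker-poor libraries the Aged + LRP1high difference was -4.03 (adjusted p = 0.577). Gpx1 did not follow the oocyte markers, with a correlation of -0.03 over the 12 oocyte libraries.

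Gpx4, which reduces lipid hydroperoxides in membranes, spanned low and high libraries within most groups. It was at 5.06, 1.10 and 26.9 FPKM in Young and at 0 and 44.0 in Aged oocytes. It was at 0 and 81.9 in Aged + Unsorted, 31.4, 43.1 and 0.420 in Aged + LRP1high, and 8.80 and 6.83 in Aged + LRP1low. Aged + LRP1low was the group with the narrowest span. The pseudogene Gpx4-ps2 shares 89.6% of its 30-base words with Gpx4 and was listed at 45.2 FPKM where Gpx4 was at 44.0, in Aged replicate 2, so the division of reads between both is uncertain.

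Prdx1 and Prdx2, cytosolic peroxiredoxins that use thioredoxin, followed each other and the oocyte markers across libraries. Prdx1 was at 1.40, 47.9 and 358 FPKM in the Young libraries, 39.6 and 337 in those of Aged, 155 and 651 in Aged + Unsorted, 244, 133 and 74.5 in Aged + LRP1high, and 8.11 and 7.82 in Aged + LRP1low oocytes. Prdx2 was at 3.30, 37.1 and 247 FPKM in the Young libraries, 25.8 and 270 in those of Aged, 212 and 420 in Aged + Unsorted, 234, 444 and 173 in Aged + LRP1high, and 12.6 and 8.81 in Aged + LRP1low. For both genes the lowest levels were in Young replicate 1 and the Aged + LRP1low libraries, which are poor in oocyte markers. Over the 12 oocyte libraries the correlation of log2(FPKM + 1) between both was 0.95, and with the oocyte marker median it was 0.96 for Prdx1, 0.98 for Prdx2 and 0.93 for Sod1, points that share library, depth and repeat content. Prdx1 of Aged + LRP1high differed from Aged by 0.21 (SE 1.71, adjusted p = 1) and Prdx2 by 1.63 (SE 1.46, adjusted p = 0.503). Without the marker-poor libraries these differences were -1.32 and -0.04, with the direction turned.

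**Figure D2:**
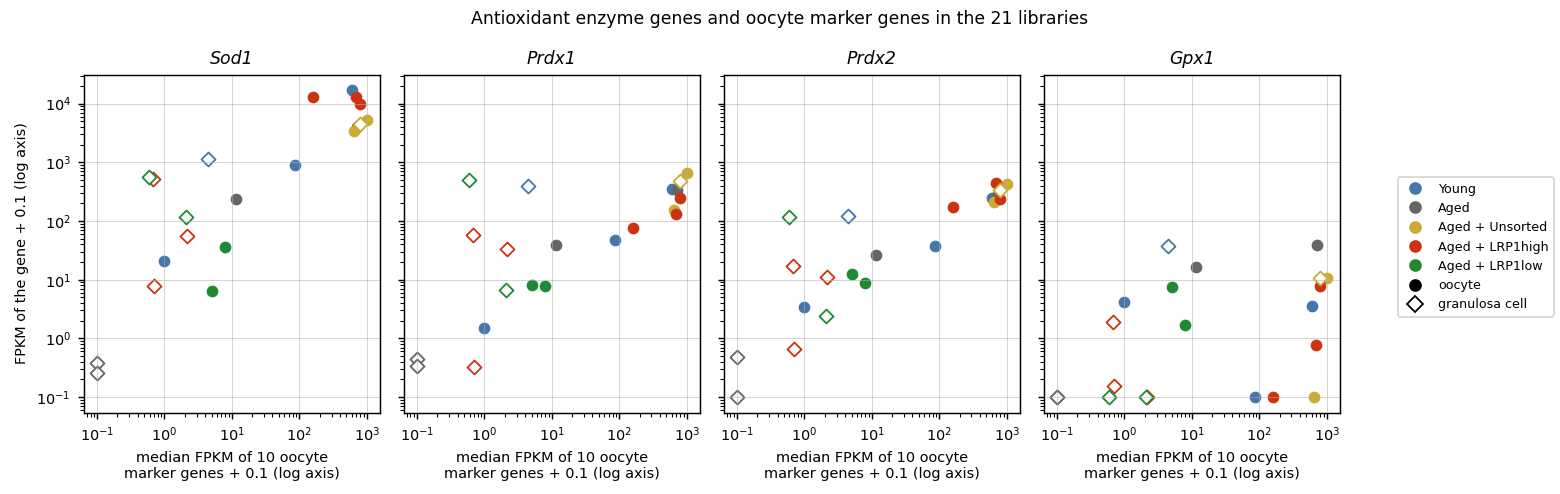
FPKM + 0.1 of Sod1, Prdx1, Prdx2 and Gpx1 against the median FPKM + 0.1 of 10 oocyte marker genes, both on log axes; each point is 1 of the 21 libraries, filled circles are oocytes, open diamonds granulosa cells, and colours are the groups. Sod1, Prdx1 and Prdx2 rise with the markers among the oocyte libraries, the granulosa cell library of Aged + Unsorted lies among the marker-rich oocytes, and Gpx1 shows no such order.

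Prdx3, the mitochondrial peroxiredoxin, was at 0.316, 0 and 15.1 FPKM in the Young libraries, 0 and 5.37 in those of Aged, 14.1 and 21.4 in Aged + Unsorted, 14.9, 0 and 0 in Aged + LRP1high, and 4.86 and 4.77 in Aged + LRP1low oocytes. Prdx5, found in mitochondria, peroxisomes and the cytosol, was at 3.91, 0 and 15.4 in the Young libraries, 9.77 and 0 in those of Aged, 20.4 and 65.3 in Aged + Unsorted, 52.7, 35.5 and 0.292 in Aged + LRP1high, and 3.94 and 2.94 in Aged + LRP1low. Both were higher in each Aged + Unsorted library than in either Aged library, by 2.86 (SE 1.59, adjusted p = 0.436) for Prdx3 and 3.52 (SE 1.83, adjusted p = 0.436) for Prdx5, which did not pass the threshold, and 10.3% of all genes tested lay above Aged in the same way. Txn1, the cytosolic thioredoxin that keeps peroxiredoxins reduced, was at 2.67, 2.74 and 16.4 FPKM in Young and 0 and 98.8 in Aged. It was at 23.7 and 69.1 in Aged + Unsorted, 24.1, 3.66 and 2.19 in Aged + LRP1high, and 5.02 and 3.78 in Aged + LRP1low. The 2 Aged libraries held both the lowest and the highest Txn1 level of all oocytes. Its difference of Aged + Unsorted from Aged was 2.06 (SE 1.79, adjusted p = 0.506), but -1.26 (adjusted p = 1) without Aged replicate 1 and 5.38 (adjusted p = 0.0184) without Aged replicate 2.

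Across the comparisons in oocytes, members called at a fold over 1.5 and an adjusted p under 0.05 were 0 of 10 for Aged against Young (0.0964% of 28004 genes tested were called), 0 for Aged + Unsorted against Aged (0%), 0 for Aged + LRP1high against Aged (0.771%, with 0.0179% higher and 0.753% lower), 0 for Aged + LRP1low against Aged (3.17%, with 3.09% higher and 0.0750% lower), 0 for Aged + LRP1high against Young (0%) and 0 against Aged + Unsorted (0%). At an unadjusted limma p under 0.05 the numbers of genes in these comparisons were 2421, 2447, 3043, 3962, 889 and 781 of 28004. The median difference of the 10 genes was 0.59 for Aged against Young, beside 0.94 over all genes tested, and 0.10 for Aged + LRP1high against Aged, beside -1.05. It was 1.63 beside -0.86 for Aged + Unsorted against Aged and -0.33 beside 0.68 for Aged + LRP1low against Aged. All 10 passed the filter of a mean of 1 FPKM over oocyte libraries, which a gene can pass through 1 high library.

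Groups that did not overlap were found for 1 member above and 2 below in Aged + LRP1high against Aged, where 3.85% and 12.4% of all genes tested lay so. In Aged + Unsorted against Aged 2 members lay above and 2 below, against 10.3% and 11.3%. In Aged + LRP1low against Aged 4 members, namely Sod1, Gpx1, Prdx1 and Prdx2, lay below and none above, against 9.55% and 27.1%. In Aged + LRP1high against Aged + LRP1low, the contrast known when the family was chosen, 2 members lay past the thresholds, beside 26.0% of all genes, a count that is no test of the members. As a description, Sod1 was at 9899 to 13185 against 6.22 and 36.5 FPKM, a difference of 9.50, and Prdx2 at 173 to 444 against 8.81 and 12.6, a difference of 4.51. Prdx1 differed by 3.92, and Sod2 and Cat by -1.86 and -1.64, beside a median of -1.89 over all genes tested. Both Aged + LRP1low libraries are poor in oocyte markers, so oocyte RNA content and group cannot be told apart here.

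**Figure D3:**
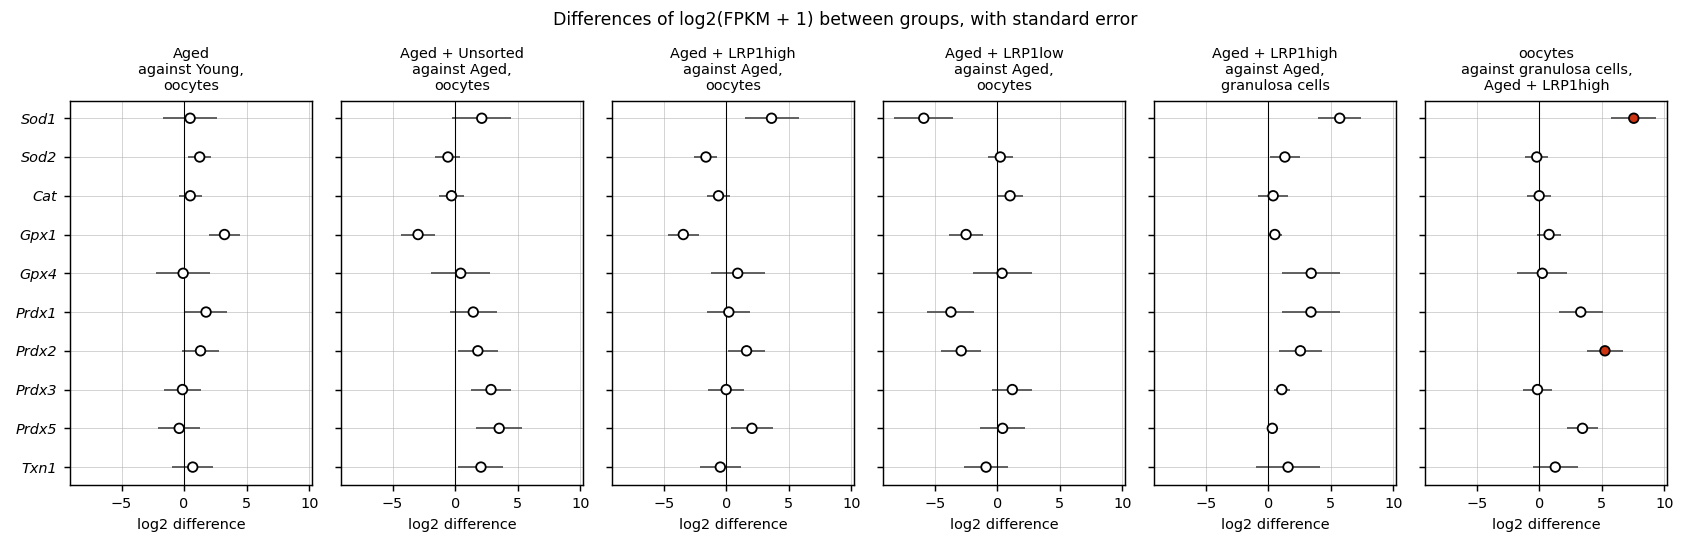
Differences of log2(FPKM + 1) with SE for the 10 genes in 6 comparisons, as points with bars; red points passed a fold over 1.5 and an adjusted p under 0.05. Gpx1 lies at 3.23 in Aged against Young and at -3.43, -2.97 and -2.49 after transplantation against Aged, none passing the threshold, and Sod1 and Prdx2 alone are red, in oocytes against granulosa cells.

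In granulosa cells the members were high in a minority of libraries. In the Young library Sod1 was at 1139 FPKM, Prdx1 at 399, Txn1 at 170 and Prdx2 at 123, and catalase reached 57.2, Gpx1 36.9, Prdx3 33.5, Gpx4 28.7, Sod2 22.7 and Prdx5 15.4. Cat, Prdx3, Sod2 and Txn1 were in no oocyte library as high as there, and Gpx1 only in Aged replicate 2 (39.0). The Young library held a granulosa marker median of 74.9 FPKM and luteal and stromal marker medians of 30.7 and 29.5. In the 2 Aged libraries no member exceeded 0.763 FPKM. Sod1 was at 0.288 and 0.157, and Gpx1, Gpx4, Prdx5 and Txn1 were listed at 0 in both, where granulosa markers too were near 0. In the Aged + Unsorted library, whose markers are those of oocytes, Sod1 was at 4524, Prdx1 at 481 and Prdx2 at 337 FPKM, within the range of the marker-rich oocyte libraries.

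After transplantation of sorted cells the granulosa levels were uneven. Sod1 was at 56.5, 7.62 and 522 FPKM in Aged + LRP1high and at 556 and 115 in Aged + LRP1low, above both Aged libraries in all 5. Of all genes tested, 50.4% lay above Aged in every Aged + LRP1high library and 30.5% in every Aged + LRP1low library. Prdx1 was at 33.8, 0.232 and 58.6 in Aged + LRP1high and 491 and 6.52 in Aged + LRP1low, and Prdx2 at 11.1, 0.558 and 16.8 and at 117 and 2.29. The highest levels were in Aged + LRP1low replicate 1, which also held Gpx4 at 202, Txn1 at 247, Sod2 at 30.3 and Cat at 21.8 FPKM, with Gpx1, Prdx3 and Prdx5 listed at 0. That library held a luteal marker median (Star, Cyp11a1 and others) of 519 FPKM and a granulosa marker median of 0.151, and the part of luteal RNA in these levels was not tested.

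Of the 10 members, 0 were called in Aged + LRP1high against Aged (0% of 13002 genes), 0 in Aged + LRP1low against Aged (0%) and 0 in Aged + LRP1high against Aged + LRP1low (0%), and 1106, 493 and 669 genes had an unadjusted limma p under 0.05. The Sod1 difference from Aged was 5.71 (SE 1.72, adjusted p = 0.458) in Aged + LRP1high and 7.70 (SE 1.89, adjusted p = 0.904) in Aged + LRP1low. All 10 differences of Aged + LRP1high from Aged were positive, with a median of 1.45 beside 0.89 over all genes tested. So were the differences of all 41 tested genes of the pathway list described below, and the share over all genes was not computed. Gpx1 and Prdx5 passed the filter on low values only through the Young and Aged + Unsorted libraries. The Aged libraries that serve as the base consisted mostly of the repeat-like family, as given above. Without Aged + LRP1low replicate 2 the Cat difference of Aged + LRP1low from Aged, 2.25 (SE 1.29, adjusted p = 0.904), became 4.27 (adjusted p = 0.0393), and without replicate 1 it was 0.22 (adjusted p = 1).

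**Figure D4:**
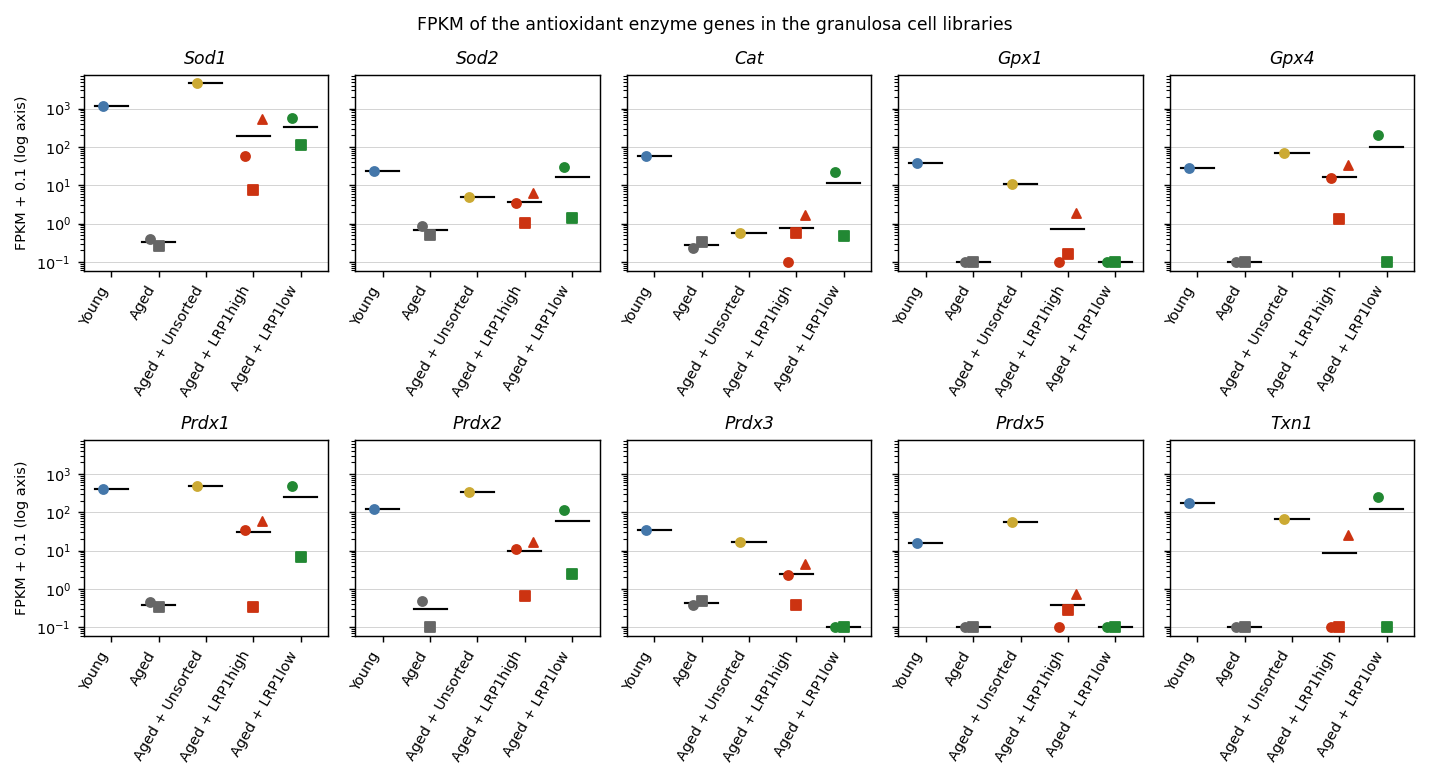
FPKM + 0.1 on a log axis for each of the 10 genes in the 9 granulosa cell libraries, by group; symbols mark replicate 1, 2 or 3 and the black line is the group mean or the single library. Both Aged libraries lie under 1 FPKM for every gene. Sod1, Prdx1 and Prdx2 are all above 100 FPKM in Young, Aged + Unsorted and 1 Aged + LRP1low library. Sod1 is also above 100 FPKM in the other Aged + LRP1low library (115) and in Aged + LRP1high replicate 3 (522).

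Sod1 and Prdx2 were higher in oocytes than in granulosa cells of Aged + LRP1high mice, the 1 condition with 3 libraries of each cell type. Sod1 differed by 7.55 (SE 1.81, adjusted p = 0.0215) and Prdx2 by 5.24 (SE 1.41, adjusted p = 0.0378), with every oocyte library above every granulosa cell library, as for 11.4% of all genes tested. The granulosa marker median of these granulosa cell libraries was 1.93, 0.429 and 21.4 FPKM, and in replicate 1 the luteal marker median was 25.8 and in replicate 2 the oocyte marker median 0.596, so the granulosa markers were the highest of these 3 lists in replicate 3 only. These were 2 of 10 members called, both higher in oocytes, beside 5.24% of 21767 genes called in either direction with 5.07% higher and 0.175% lower. Sod1 levels in these oocytes were known when the family was chosen, so its call and this count are not independent of that choice. Prdx1 also did not overlap, at 3.31 (SE 1.74, adjusted p = 0.372), and Prdx5 differed by 3.45 (SE 1.24, adjusted p = 0.140). Sod2, Cat, Gpx4 and Prdx3 differed by -0.21, -0.02, 0.23 and -0.15. The granulosa cell libraries held 68.5 to 96.4% repeat-like FPKM against at most 1.73% in the oocytes, and with TPM rescaled without that family the Sod1 difference was 5.89 (adjusted p = 0.0187) and that of Prdx2 4.03 (adjusted p = 0.111). Across 14 alternative settings Sod1 kept its direction and was called in 7, and Prdx2 in 4. Without Aged + LRP1high oocyte replicates 1 or 2, or granulosa replicates 1 or 2, neither gene was called, with adjusted p from 0.0648 to 0.191, and without granulosa replicate 3 Prdx2 was at an adjusted p of 0.0537. The effect of LRP1high transplantation against Aged did not differ between the cell types for any member past the threshold (0 of 10, 0% of 21767 genes, 3493 with an unadjusted limma p under 0.05), the closest being Gpx1 at -3.95 (SE 1.55, adjusted p = 0.248).

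Other genes of the pathway were followed in a list of 52, of which 48 were tested in oocytes. None was called in Aged against Young, where Nqo1, a quinone reductase and target of the regulator Nfe2l2, differed by 2.79 (SE 1.13, adjusted p = 0.473) and Idh1, a source of NADPH, by -2.27 (SE 1.23, adjusted p = 0.515). None was called in Aged + LRP1high against Aged, where Park7, a redox-sensitive chaperone, differed by 4.30 (SE 1.25, adjusted p = 0.135) and Pgd, an NADPH-producing dehydrogenase, by -2.98 (SE 0.81, adjusted p = 0.111). Park7 also differed by 4.18 (SE 1.37, adjusted p = 0.251) in Aged + Unsorted against Aged, where 0 of 48 were called. In Aged + LRP1low against Aged 0 of 48 were called, and Txnip, which binds and inhibits thioredoxin, differed by -3.94 (SE 2.40, adjusted p = 0.526). In Aged + LRP1high against Aged + LRP1low 1 partner, Msrb3, lay past the thresholds upward and 10 downward, beside 1.21% and 24.8% of all genes, again as a description from which nothing is read. In granulosa cells 0 of 41 were called in each of the 3 comparisons. Between oocytes and granulosa cells of Aged + LRP1high 3 of 46 were called, all higher in oocytes, beside 5.07% of all genes. These were Msrb3, a methionine sulfoxide reductase, at 6.32 (SE 1.17, adjusted p = 0.00708), Park7 at 3.99 (SE 1.03, adjusted p = 0.0314) and Gclm, a subunit of the enzyme that starts glutathione synthesis, at 3.33 (SE 0.80, adjusted p = 0.0208). Gclm was named after its values were seen.

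The genes whose log2(FPKM + 1) was most like that of a member over the 21 libraries, among 3494 genes with a mean of at least 10 FPKM, were Rgs2 for Sod1 (Pearson r = 0.97), Eef1a1 for Prdx1 (0.98), Rpl35 for Prdx2 (0.98), Fh1 for Txn1 (0.96), Cep70 for Prdx5 (0.94), Mrpl30 for Gpx4 (0.94), Strap for Prdx3 (0.93), Prss23 for Cat (0.92), Itfg1 for Sod2 (0.88) and Gm13841 for Gpx1 (0.87). These are descriptions over libraries that share depth, marker and repeat content.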

How the data were processed

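Per the labels, poly-A RNA of mouse oocytes and granulosa cells was captured with a PicoPure and KAPA stranded kit, whereas the study's methods name Smart-seq2, so the use of strand is uncertain, and overlapping opposite-strand genes (Scaf4 at Sod1, Junb and Rnaseh2a at Prdx2, Trmt112 at Prdx5) cannot be told apart from members with certainty. The submitters' processing notes name HISAT2 2.2.1 and StringTie 1.3.3b with build mm9, but 54577 of 55335 identifiers carry GRCm38 coordinates, which are used here. FPKM, TPM and mean coverage per gene were deposited by the authors as StringTie tables, 1 per library, without read counts. The depth was computed from coverage and FPKM of single-exon genes, and FPKM carry no interval for counting error.

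FPKM of repeated identifiers were summed. Genes with a mean of at least 1 FPKM were fitted as log2(FPKM + 1), all groups of a cell type in 1 model, with limma 3.58.1 in R 4.3.3, after a check on simulated data. Genes were called at a fold over 1.5 and a Benjamini-Hochberg adjusted p under 0.05. The Young and Aged + Unsorted granulosa cell groups have 1 library each and were compared with nothing, but they counted in the filter. Gpx1 was at 36.9 and 10.6 FPKM in these libraries and at most 1.79 in the other granulosa cell libraries. Prdx5 was at 15.4 and 55.0 FPKM against at most 0.638. Both genes passed the filter only through these libraries. Alternatives were TPM, a pseudocount of 0.1, no filter, quantile normalization, a trended robust fit, a replicate block and each library left out. Chosen after seeing the data were TPM rescaled without the repeat-like family and a fit without 5 libraries. These 5 were the marker-poor oocyte libraries and the Aged + Unsorted granulosa cell library. Other granulosa cell libraries with low granulosa markers stayed in that fit. All 10 members are named. Of the 52 partners, examples are taken from the 5 largest differences of each comparison, and likeness lists the genes with the highest correlation. Members and lists were chosen with earlier results of these data known. Figures were drawn with matplotlib 3.10.9.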

Additional observations from a re-analysis of the deposited data

Results flagged for a closer look

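Sod1, Prdx1 and Prdx2 of Aged + LRP1low lay apart from Aged in opposite directions in the cell types, but none of these differences passed the threshold. In each cell type every library of one group lay on one side of the other group. Of all genes tested, 9.55% lay so below Aged in oocytes and 30.5% above Aged in granulosa cells. The share of genes that did both was not computed. In oocytes the differences of log2(FPKM + 1) were -5.88, -3.71 and -2.89, and in granulosa cells 7.70, 5.56 and 4.06. Their limma adjusted p was at least 0.269 in oocytes and at least 0.904 in granulosa cells. The difference between the cell types was not tested. The oocyte libraries of Aged + LRP1low were poor in oocyte markers and the Aged granulosa cell libraries poor in granulosa markers.

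In 2 granulosa cell libraries that entered no comparison, members were above both Aged granulosa cell libraries. In Young, Sod1 was at 1139 FPKM, Prdx1 at 399, Prdx2 at 123 and Txn1 at 170. In Aged + Unsorted, whose markers are those of oocytes, Sod1 was at 4524, Prdx1 at 481 and Prdx2 at 337 FPKM. No group had 4 or more libraries, so no single library was tested as far from its group.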

How the results depend on the processing

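The count of members past the thresholds in Aged + LRP1high against Aged + LRP1low oocytes is a description of the contrast known at the choice of members and no test of them. It was 2 in the report and 0 with a pseudocount of 0.1, with quantile normalization, with the replicate number as a block and with TPM rescaled without the repeat-like family, 1 with a trended robust fit, and 0 whenever a library was left out (0 to 0). The number of members called in oocytes against granulosa cells of Aged + LRP1high, 2 as reported, was 1 with a pseudocount of 0.1, with quantile normalization (Prdx5 in place of Sod1 and Prdx2, adjusted p = 0.0382 in limma) and with the rescaled TPM, 0 without a filter or with a trended robust fit, and 0 to 3 with a library left out. With a library left out it was 0 to 1 in Aged + Unsorted against Aged oocytes (Txn1) and 0 to 1 in Aged + LRP1low against Aged granulosa cells (Cat). The cause of these changes was not tested. Same-numbered libraries were compared within a cell type by their deviations from the group mean. Correlations were from -0.436 to 0.441 in oocytes and from -0.185 to 0.148 in granulosa cells. In groups of 2 libraries the deviations mirror each other, so these values cannot decide whether the numbers pair libraries. Pairing of oocyte with granulosa cell libraries was not tested. The replicate block left 2 members called between the cell types and 0 in the remaining comparisons. Without the marker-poor oocyte libraries, the Aged + LRP1low oocyte comparisons could not be fitted. The shallow libraries limit the genes at low FPKM, where 0 cannot be read as absence.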

Other observations

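Other genes shared sequence with members. Gm8566 shares 49.8% of its 30-base words with Sod1 and reached 639 FPKM in oocytes, but it was above Sod1 in 1 oocyte library, Aged + LRP1low replicate 1, at 12.1 against 6.22 FPKM. Prdx2-ps1, which shares 38.2% with Prdx2, reached 5.91 FPKM, and Gm21399, which shares 54.0% with Prdx1, reached 25.9 FPKM. Gpx4-ps2 was above Gpx4 in 2 oocyte libraries.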
